A study of Rattus norvegicus with 24 samples.

Results

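The genes described here code for the machinery that copies DNA and for the repair and checkpoint proteins that work with it in S phase. The list held 50 symbols in 10 role groups, chosen by function with earlier results of these data known. Symbols could be paired with a gene identifier for 45 of them, out of 32883 genes counted, and Gins2, Rfc5, Pold1, Chek1 and Dna2 were not analysed here. The genes were followed in primary rat oligodendrocyte precursor cells (OPCs), grown from the cerebral cortex of newborn rat pups, and in the oligodendrocytes (OLs) that these cultures formed. OPCs were sequenced after 24 hours in proliferation medium, which contained fibroblast growth factor, platelet-derived growth factor and neurotrophin 3, and OLs after a further 72 hours in differentiation medium with thyroxine. At each stage the cells were left untreated, received 0.04% DMSO as vehicle, or received 8 µM dolutegravir (DTG), an HIV integrase inhibitor, and each treatment ran through both stages for the OLs. Each of the 6 groups had 4 libraries, and the study prepared its biological replicates from independent litters. Library names carry 1 code per replicate number in all 6 groups, which is taken here as a shared culture preparation, and the codes of replicates 2 and 3 differ in 1 letter. Between 13241279 and 18499994 counts fell on genes in a library.

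Before a cell divides, origins of replication are licensed when CDC6 and CDT1 load the ring of MCM2 to MCM7, which becomes the replicative helicase once CDC45 and the GINS complex join it. DNA polymerases then work with the sliding clamp PCNA, FEN1 and LIG1 join the fragments of the lagging strand, and enzymes such as ribonucleotide reductase supply the nucleotides. Many of these genes are known targets of E2F transcription factors and are transcribed when cells pass from G1 into S phase. OPCs are dividing cells, and they leave the cell cycle as they become myelin-forming OLs.

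Symbols came from the tables of the study that pair identifiers with names, and this limits what can be tested. Every replication gene analysed took its symbol from a table that, in the form used here, held only genes called lower in DMSO-treated OLs than in DMSO-treated OPCs. All 45 genes therefore had to be lower in that contrast, which is given as a description without a test. Tests between stages come from the untreated and the DTG-treated cells, whose libraries had no part in the pairing of these 45 genes with identifiers, although they share the replicate codes. The list itself was chosen with earlier results of these data known, so these tests are not those of a blind list. Untreated replicate 3 was counted on another annotation of 30560 genes at both stages, where only 4 of the 45 genes had an equal exonic length, and these 2 libraries were left out of the fits. The OPC libraries of replicate 1 also stood apart. Replicate 1 held the highest level for 43 of 45 genes in untreated OPCs, 39 of 45 in DMSO-treated OPCs and 38 of 45 in DTG-treated OPCs, against 35.0%, 17.5% and 17.4% of all genes tested. The 45 genes took 0.603%, 0.605% and 0.540% of all gene counts in these 3 libraries and between 0.300% and 0.370% in the other 9 OPC libraries.

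Markers with a symbol are given as a description of the cultures, because the pairing decided which of them could be named. The OPC, neuronal and microglial markers took their symbols from the table of genes lower in DMSO-treated OLs. They therefore had to fall in DMSO-treated cells. The OL markers came from the study's table of genes changed between DTG and DMSO in OLs. The OPC genes Pdgfra and Cspg4, the 2 of 8 OPC markers with a symbol, summed to between 542 and 1153 CPM (counts scaled to the size of the library) in 11 OPC libraries and to between 132 and 366 CPM in 11 OL libraries. The myelin genes Mbp and Mog and the early OL gene Enpp6, 3 of 8 OL markers, summed to between 109 and 343 CPM in OPCs and between 1745 and 11568 CPM in OLs, with Mbp the most abundant. Of the neuronal markers, Map2, Stmn2 and Snap25 had a symbol, 3 of 6, and they summed to between 143 and 440 CPM in OPCs and to between 73.6 and 167 CPM in OLs, most of it Map2. The microglial gene Cd68 reached at most 3.14 CPM in OPCs and 0.616 CPM in OLs. The sum of the 3 neuronal genes overlapped between the stages with a lower range in OLs, and Cd68 was lower in OLs without overlap. Since the pairing required a fall in DMSO-treated cells, these directions are a description and not free of that selection. The part of these genes in the differences between stages was not tested.

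The replication genes were far more abundant in OPCs than in OLs. Their summed level was 4001 ± 1041 CPM in untreated OPCs (SD, n = 3) and 687 ± 83.5 CPM in untreated OLs (n = 3). In DMSO-treated cells it was 3677 ± 947 CPM and 773 ± 91.3 CPM (n = 4 each), and in DTG-treated cells 3247 ± 821 CPM and 576 ± 84.6 CPM (n = 4 each). No OPC library fell below 2566 CPM and no OL library rose above 881 CPM, as the plot of the summed level by library shows. Between libraries of the same number, untreated OLs held 14.7%, 20.5% and 17.6% of the summed level of the OPCs, and DTG-treated OLs held 15.5%, 18.1%, 23.3% and 16.1%. Libraries of bulk cultures do not tell fewer cycling cells from less RNA per cell.

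**Figure D1:**
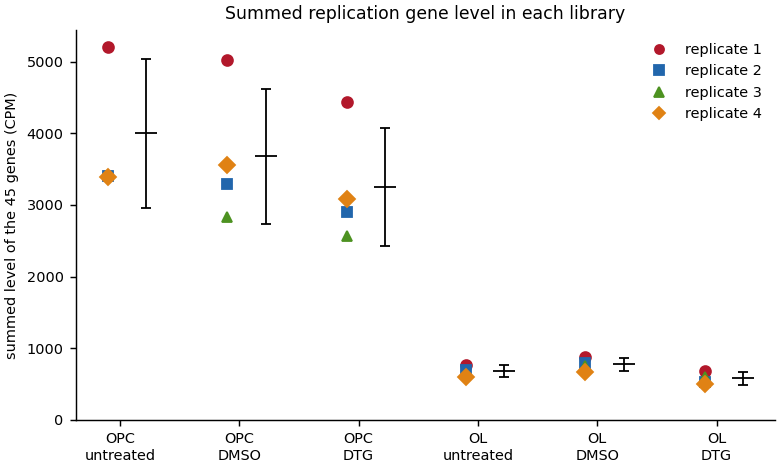
Summed level of the 45 replication genes in CPM (vertical axis, starting at 0) in each library, by stage and treatment. Symbols and colours mark the replicate number, horizontal ticks with bars give the mean ± SD, and untreated replicate 3 is not shown. All 11 OPC libraries lie at or above 2566 CPM and all 11 OL libraries at or below 881 CPM, and replicate 1 is the highest of each group.

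Against untreated OPCs, all 45 genes fell in untreated OLs, with log2 fold changes beyond 1 in size and adjusted p-values below 0.05 (quasi-likelihood test of edgeR, adjusted over 13110 genes by the Benjamini-Hochberg procedure). Of all genes tested, 11.9% were called lower by this rule. The genes that took a symbol from the same tables are the closer background, and 58.6% of 2019 such genes other than the 45 were called lower. The median log2 fold change was -2.66 for the replication genes, -1.27 for those other genes with a symbol and -0.02 for all genes. In all 45 genes the values of untreated OLs lay below those of untreated OPCs without overlap, which held for 26.4% of all genes. The largest adjusted p-value among the 45 was 0.0201, for Ccne2.

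In DTG-treated cells, tested on other libraries with the same replicate codes, all 45 genes fell as well. Among all 13171 genes 22.8% were called lower, and 88.2% of 2030 other genes with a symbol were. The median log2 fold change was -2.97 for the replication genes, -1.75 for the other genes with a symbol and -0.11 for all genes. Without replicate 1 at either stage, 44 of 45 genes were called in untreated cells, with a median of -2.52, and 45 of 45 in DTG-treated cells, with a median of -2.81. For DMSO-treated cells, where the selection fixed the direction, the median was -2.58 with a range from -3.76 to -1.35, and 18.5% of all genes were called lower.

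In untreated cells the largest fall was that of Rrm2, the regulatory subunit of ribonucleotide reductase. In DTG-treated cells the lowest estimate was that of E2f8 at -4.16, with Rrm2 at -3.97. Rrm2 was at 291, 179 and 154 CPM in untreated OPCs of replicates 1, 2 and 4 and at 14.9, 9.06 and 9.75 CPM in untreated OLs. The 2 groups were far apart, and the level in OLs was 5.39% of that in OPCs, a log2 fold change estimated at -4.21 (standard error 0.30, adjusted p-value 8.55e-06 by edgeR). Gins1, a subunit of the GINS complex, was at 54.8, 45.7 and 34.6 CPM in OPCs and at 2.39, 2.26 and 3.44 CPM in OLs, with a log2 fold change estimated at -4.04 (standard error 0.27). Uhrf1, which brings the maintenance DNA methyltransferase to newly copied DNA, was at 253, 153 and 129 CPM in OPCs and at 13.4, 11.2 and 8.76 CPM in OLs. Its log2 fold change was -4.02 (standard error 0.29). In these 3 genes the OPC and OL libraries were far apart in every replicate.

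At the other end stood Ccne2, Tipin and Mcm7. Ccne2, which codes for cyclin E2, a partner of CDK2 at the G1/S transition, was at 11.02, 5.56 and 5.38 CPM in untreated OPCs and at 3.21, 3.94 and 2.22 CPM in untreated OLs. The lowest OPC value was 5.38 CPM and the highest OL value 3.94 CPM, so the groups lay close, and the log2 fold change was -1.27 (standard error 0.37). Its call was lost without the OPC library of replicate 1 (log2 fold change -0.84, adjusted p-value 0.0766 by edgeR), and without the OL library of replicate 4 (-1.05, adjusted p-value 0.0738 by edgeR). It was also lost in 1 fit over all 22 libraries (adjusted p-value 0.0992 by edgeR). Tipin, a partner of TIMELESS that protects stalled forks, was at 4.56, 4.24 and 4.65 CPM in OPCs and at 1.57, 1.26 and 1.55 CPM in OLs, with a log2 fold change estimated at -1.61 (standard error 0.28). Mcm7 was at 369, 239 and 264 CPM in OPCs and remained at 105, 90.6 and 82.1 CPM in OLs, which is 31.7% of the OPC level, with a log2 fold change estimated at -1.66 (standard error 0.20).

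**Figure D2:**
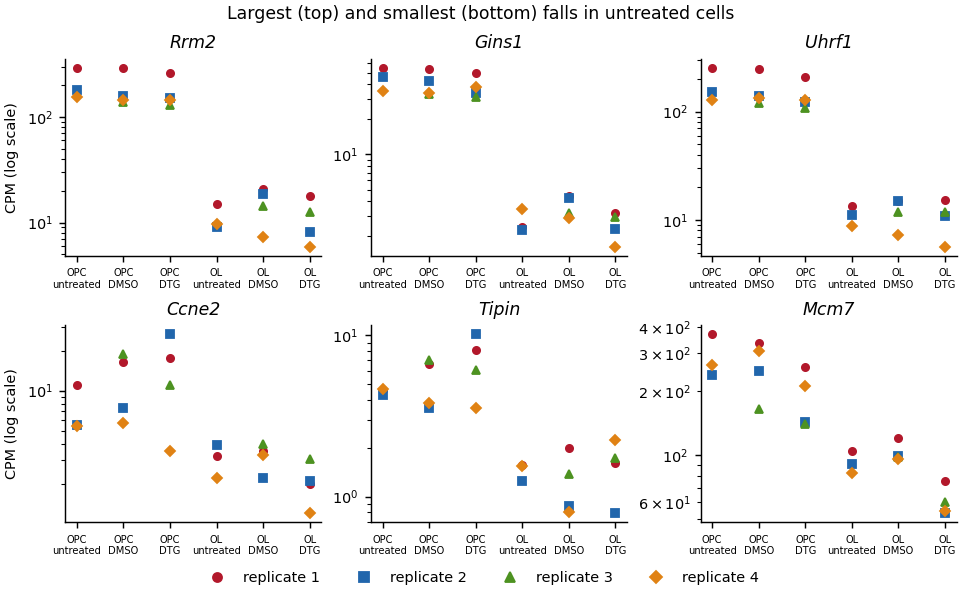
Levels in CPM (log axes) in each library for the 3 genes with the largest fall (top row, Rrm2, Gins1 and Uhrf1) and the 3 with the smallest fall (bottom row, Ccne2, Tipin and Mcm7) between untreated OPCs and untreated OLs, with symbols and colours for the replicate number. In the top row OPCs and OLs are separated in each treatment, and in the bottom row Mcm7 stays above 50 CPM in every OL library.

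**Figure D3:**
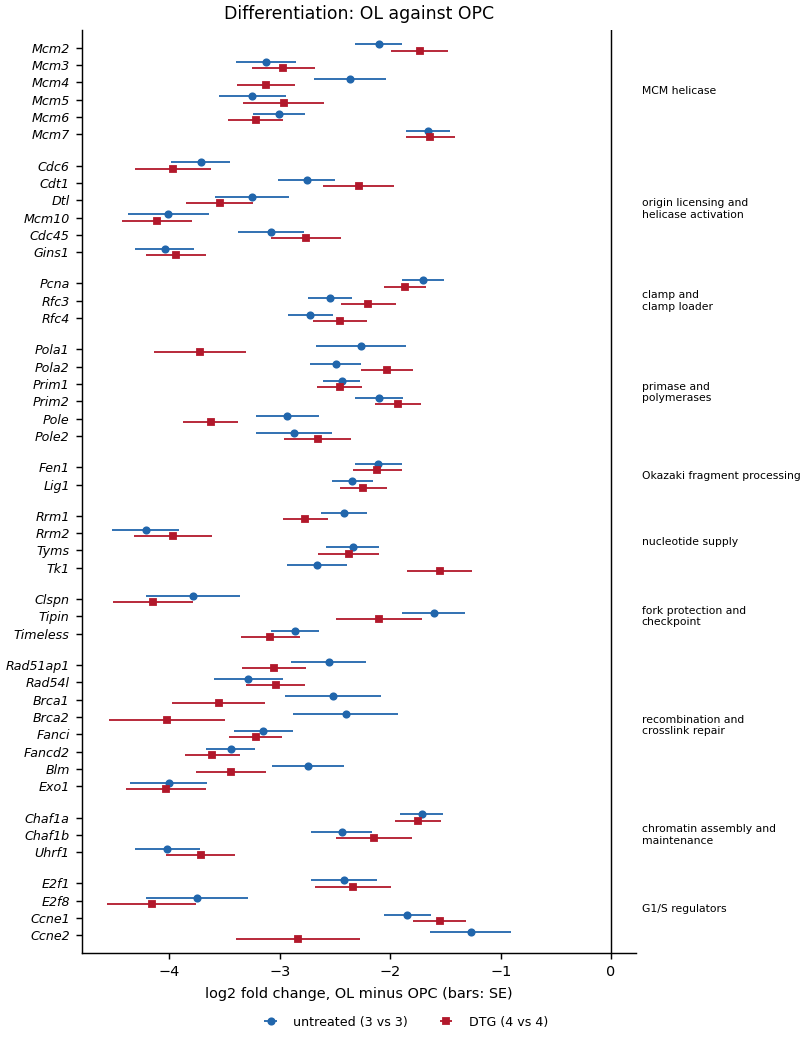
Log2 fold change of each of the 45 genes between OLs and OPCs (horizontal axis, bars give the standard error) in untreated cells (blue circles) and DTG-treated cells (red squares), grouped by role. Every estimate lies below 0, between -4.21 and -1.27 in untreated cells and between -4.16 and -1.55 in DTG-treated cells.

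By role, origin licensing and helicase activation showed the lowest median log2 fold change in untreated cells, at -3.48 over 6 genes, and the G1/S regulators the highest, at -2.13 over 4 genes. Recombination and crosslink repair stood at -2.95 over 8 genes, fork protection at -2.86 over 3, the MCM helicase at -2.69 over 6, the clamp and its loader at -2.55 over 3, nucleotide supply at -2.54 over 4, primase and polymerases at -2.47 over 6, chromatin assembly at -2.44 over 3 and the processing of Okazaki fragments at -2.23 over 2. The groups overlapped widely, since chromatin assembly alone ran from -1.71 for Chaf1a, a subunit of the histone chaperone CAF-1, to -4.02 for Uhrf1. In DTG-treated cells the licensing genes again had the lowest median, at -3.74, and the clamp, chromatin assembly and Okazaki genes the highest, at -2.20, -2.15 and -2.18.

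The most abundant gene of each role group shows the scale. Cdt1, the licensing factor that loads MCM rings, was at 103, 66.4 and 79.0 CPM in untreated OPCs and at 14.2, 14.6 and 8.37 CPM in untreated OLs, 14.8% of the OPC level. Pcna, the clamp, was at 259, 187 and 176 CPM in OPCs and at 65.3, 69.4 and 57.5 CPM in OLs. It kept 30.7% of its OPC level, close to the share of Mcm7. Prim1, the catalytic subunit of primase, went from 78.6, 73.2 and 67.8 CPM to 14.8, 12.3 and 13.5 CPM, and Lig1, which seals nicks between Okazaki fragments, from 128, 87.6 and 102 CPM to 22.2, 21.9 and 18.9 CPM. Prim1 kept 18.4% and Lig1 19.7% of the OPC level.

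Rrm1, the large subunit of ribonucleotide reductase, was at 321, 288 and 197 CPM in untreated OPCs and at 56.0, 48.9 and 46.7 CPM in untreated OLs. It kept 18.7% of its OPC level, against 5.39% for its partner Rrm2. Timeless, of the fork protection complex, went from 118, 85.6 and 72.8 CPM to 13.5, 13.2 and 11.6 CPM. Fanci, of the Fanconi anaemia crosslink repair pathway, went from 79.0, 61.7 and 46.6 CPM to 8.82, 5.37 and 6.93 CPM, and Ccne1, which codes for cyclin E1, from 64.5, 44.9 and 47.2 CPM to 17.3, 13.5 and 12.9 CPM. In each of these genes the groups did not overlap, and the log2 fold changes were -2.86 (standard error 0.22) for Timeless, -3.15 (standard error 0.26) for Fanci and -1.85 (standard error 0.21) for Ccne1.

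Because the genes fell by different amounts, their order changed between the stages. Per kilobase of exon, Pcna and Rrm2 were level in untreated OPCs at 179 and 177 CPM per kb (means, n = 3). Comparisons between genes on this scale depend on the exonic lengths of the annotation used. Rrm2 had 1173 bases in it and 2573 in the annotation of untreated replicate 3, Pcna 1160 and 1473, and Mcm6 2917 and 3969. In untreated OLs Pcna was at 55.2 and Rrm2 at 9.58 CPM per kb, below Mcm7 at 37.2 and Mcm2 at 18.95. The 6 MCM subunits, which assemble in equal numbers, were not at equal transcript levels. In untreated OPCs Mcm7 stood at 117 ± 27.7, Mcm6 at 103 ± 27.1, Mcm5 at 93.7 ± 26.04, Mcm2 at 80.9 ± 19.3, Mcm3 at 53.2 ± 17.1 and Mcm4 at 19.5 ± 9.68 CPM per kb (SD, n = 3). Neighbours from Mcm7 down to Mcm2 lay within the spread of the libraries. In untreated OLs Mcm7 at 37.2 ± 4.62 and Mcm2 at 18.95 ± 3.27 CPM per kb stood above Mcm6 at 12.9 ± 2.46, Mcm5 at 9.94 ± 3.46, Mcm3 at 6.15 ± 1.499 and Mcm4 at 3.83 ± 0.56. Mcm7 and Mcm2 were thus the subunits that kept the most, as the plot of MCM levels per kilobase shows.

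Promoters were read for the letters of E2F motifs, because members that moved together could share them. RefSeq windows from 250 bases before to 50 bases after an annotated start, on the rat build GRCr8, were present for 38 of the 45 genes. The motifs searched on both strands were TTTCGCGC, TTTGGCGC, TTTCCCGC and TTTGCCGC, and matches of different motifs on opposite strands can overlap. At least 1 of the 4 was found in the windows of 19 genes, or 50.0% of 38, against 2.95% of 19005 protein-coding genes and 2.37% of 27457 genes with a window. TTTCGCGC was found for 10 genes (26.3%, against 0.489% of protein-coding genes), TTTGGCGC for 10 (26.3%, against 0.695%), TTTCCCGC for 7 (18.4%, against 1.37%) and TTTGCCGC for 0 (against 0.500%). The median GC content was 59.2% in the windows of the replication genes and 55.0% in those of protein-coding genes, and motifs of this kind are rich in G and C. Stretches of 60 bases are shown for 7 genes whose values are described here, to let the matches be seen in place, with the matched letters in capitals. They lie just before the start, except for Mcm6, where the stretch ends 102 bases before it.
Gins1: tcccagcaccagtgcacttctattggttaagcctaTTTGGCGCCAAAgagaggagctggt
Mcm2: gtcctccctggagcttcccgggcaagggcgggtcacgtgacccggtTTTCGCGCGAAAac
Mcm7: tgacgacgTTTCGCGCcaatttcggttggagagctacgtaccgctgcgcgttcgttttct
Dtl: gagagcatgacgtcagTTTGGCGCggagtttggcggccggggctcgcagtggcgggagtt
Tyms: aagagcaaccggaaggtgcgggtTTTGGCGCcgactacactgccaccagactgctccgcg
Tipin: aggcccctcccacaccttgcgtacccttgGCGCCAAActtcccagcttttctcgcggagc
Mcm6: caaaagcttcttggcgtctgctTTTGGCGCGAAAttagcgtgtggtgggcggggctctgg
These stretches lie on GRCr8 at chr3:160184860-160184919 (plus strand) for Gins1, chr4:122918095-122918154 (minus) for Mcm2, chr12:22163179-22163238 (minus) for Mcm7, chr13:105685922-105685981 (minus) for Dtl, chr9:120776084-120776143 (minus) for Tyms, chr8:73676031-73676090 (plus) for Tipin and chr13:42404454-42404513 (minus) for Mcm6.

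In Gins1 and Mcm2 the motif is a palindrome, matched on both strands over 12 bases, and in Mcm6 a TTTGGCGC on the printed strand overlaps a TTTCGCGC on the other. In untreated cells the median log2 fold change was -2.87 for the 19 genes with a match, from -4.04 to -1.61, and -2.49 for the 19 without, from -4.01 to -1.70. In DTG-treated cells the medians were -2.97 and -2.46, and the ranges overlapped in both. Gins1, with one of the largest falls, and Tipin and Mcm7, with 2 of the smallest, all held a match. A match is a run of letters and not a measured binding site.

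Other genes of the same pathways moved with the list. Of 75 further replication and S-phase genes, 54 had a symbol. All 54 estimates were below 0 in untreated cells, with a median log2 fold change of -2.35, and 49 were called lower, against 11.9% of all genes and 58.6% of other genes with a symbol. Among them were Ticrr, which activates origins, at -4.24 (standard error 0.40) and Ube2t, the ubiquitin ligase partner of the Fanconi pathway, at -3.95 (standard error 0.25). The 5 not called were Orc2 of the origin recognition complex at -0.75, the clamp loader gene Rfc1 at -0.69, the mismatch repair gene Msh6 at -0.95, the checkpoint kinase gene Atr at -1.11 and E2f3 at -0.97. In DTG-treated cells 53 of the 54 were called lower, against 22.8% of all genes and 88.2% of other genes with a symbol. All 7 mitosis genes with a symbol were called lower in both comparisons, against the same backgrounds, Aurkb the most in untreated cells at -4.04 (standard error 0.25). These genes took their symbols from the same table, so that all had to be lower in DMSO-treated OLs than in DMSO-treated OPCs. Of 31 repair genes that work outside S phase only Lig4 and Prkdc, both of non-homologous end joining, had a symbol, and their log2 fold changes were -0.18 and -0.05 in untreated cells (adjusted p-values 0.678 and 0.915, edgeR) and -1.75 and -1.87 in DTG-treated cells, where both were called.

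DTG was compared with DMSO in OLs to ask whether the remaining replication transcripts responded to the drug. None of the 44 genes tested passed both thresholds of edgeR's test (Brca2 was too low to be tested), with 12 at an unadjusted p-value under 0.05, 11 of them lower, and 0 called by DESeq2, while 0.212% of 12710 genes were called lower and 0.37% were called higher. The estimates leaned one way, since 40 of the 44 were below 0 with a median log2 fold change of -0.37, against 48.7% of all genes below 0 and a median of 0.01. An unadjusted p-value under 0.05 in the lower direction was found for 6.26% of all genes. Among the 1754 other genes with a symbol, 35.3% were below 0 and the median was 0.13. Most of these shared the selection through DMSO-treated OLs. Others took their symbols from the study's table of genes changed between DTG and DMSO in OLs, the contrast described here. Of the further replication and S-phase genes, 35 of the 50 tested were below 0 with a median of -0.13, and 5 of them (10.0%), all lower, had an unadjusted p-value under 0.05 by edgeR. The 7 mitosis genes with a symbol were all below 0, with a median of -0.36. Of these, 1 (14.3%) had an unadjusted p-value under 0.05 by edgeR. Differences between these lists were not tested. At an adjusted p-value under 0.05 without the minimum fold change, Mcm7 and Fen1 were lower by edgeR, against 0.338% of all genes. DESeq2 put 4 of 45 genes under that threshold, Mcm3, Mcm6, Mcm7 and Fen1. No share of all genes is given for DESeq2 at that threshold, so this count stands without a background. At both thresholds DESeq2 called 52 of 13400 genes lower, against 27 of 12710 by edgeR. With the replicate number as a block, 9 of the 44 had an adjusted p-value under 0.05, all of them lower, against 2.23% of all genes. These were Mcm2, Mcm3, Mcm5, Mcm6, Mcm7, Fen1, Cdc6, Chaf1a and E2f1.

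Of these 9, 5 were MCM subunits. Mcm7 was at 120, 99.1, 97.7 and 96.1 CPM in DMSO-treated OLs of replicates 1 to 4 and at 75.6, 53.4, 60.3 and 54.8 CPM in DTG-treated OLs. The groups did not overlap, and the level with DTG was 58.9% of that with DMSO, a log2 fold change estimated at -0.76 (standard error 0.15, adjusted p-value 0.0313 by edgeR, 0.000641 with the block). Mcm6 was at 53.0, 43.9, 34.8 and 31.6 CPM with DMSO and at 32.7, 21.9, 23.6 and 18.6 CPM with DTG, lower in 4 of 4 pairs with the highest DTG library above the lowest DMSO library. Its log2 fold change was also -0.76 (standard error 0.21, adjusted p-value 0.122 by edgeR, 0.00314 with the block). Mcm3 was at -0.79 (standard error 0.22), Mcm5 at -0.70 (standard error 0.29), Mcm2 at -0.50 (standard error 0.16) and Mcm4 at -0.41 (standard error 0.26), each lower in the fit and none past the adjusted threshold of edgeR without the block. Of the summed level of the 45 genes, MCM transcripts took 38.5 ± 0.308% in DMSO-treated OLs and 32.5 ± 2.42% in DTG-treated OLs (SD, n = 4 each), against 36.9 ± 2.44% in untreated OLs (n = 3). The untreated libraries, from 34.1% to 38.7%, overlapped the DTG-treated libraries, from 29.2% to 34.9%.

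Fen1, the flap endonuclease that trims Okazaki fragments, was at 21.6, 18.0, 17.7 and 16.8 CPM in DMSO-treated OLs and at 11.9, 10.0, 10.5 and 10.3 CPM in DTG-treated OLs. All 4 DTG libraries were below all 4 DMSO libraries, with a log2 fold change estimated at -0.80 (standard error 0.17, adjusted p-value 0.0437 by edgeR). The direction held with any 1 library left out, but the adjusted p-value then ran from 0.0142 to 0.105 for Mcm7 and from 0.0509 to 0.140 for Fen1 (edgeR). It reached 0.211 for Mcm7 and 0.280 for Fen1 with replicate 2 left out of both groups, and in 1 fit over all 22 libraries it was 0.159 and 0.119, where none of the 45 genes was under 0.05. The values of both groups were free of overlap in 7 genes that were lower with DTG, Mcm2, Mcm3, Mcm7, Fen1, Rad51ap1, Chaf1a and E2f1, against 3.9% of all genes. Tyms, which codes for thymidylate synthase, went the other way, at 3.86, 3.87, 2.91 and 3.00 CPM with DMSO and at 5.98, 4.40, 4.89 and 6.03 CPM with DTG. It was the only gene of the list whose DTG libraries all lay above the DMSO libraries. No share of all genes is given for that direction, so this count stands without a background. Its log2 fold change was estimated at 0.64 (standard error 0.23) and did not pass the test (adjusted p-value 0.234, edgeR). Rfc4 at 0.39, Tipin at 0.36 and Dtl at 0.09 were the other estimates above 0.

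**Figure D4:**
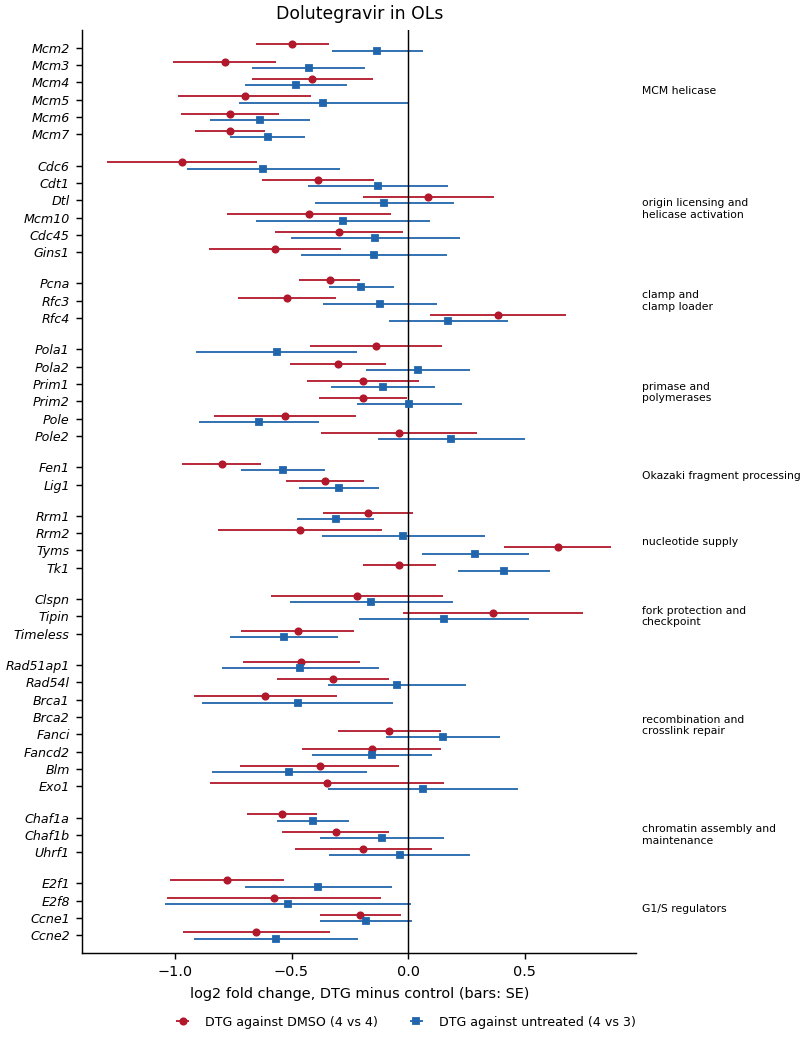
Log2 fold change of each gene in DTG-treated OLs (horizontal axis, bars give the standard error) against DMSO-treated OLs (red circles) and against untreated OLs (blue squares), grouped by role. Brca2 was too low to be tested. Of 44 estimates, 40 lie below 0 against DMSO and 35 against untreated OLs, and the MCM genes lie between -0.79 and -0.13.

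Untreated OLs gave a control that had no part in the pairing of symbols, although they share the DTG libraries with the comparison above. Against them 0 of 44 genes were called in DTG-treated OLs (edgeR), with 6 at an unadjusted p-value under 0.05, all lower (against 5.61% of all genes), and 0 called by DESeq2, while 0.0698% of 12886 genes were called lower. The median log2 fold change was -0.17, with 35 of 44 estimates below 0, against 50.6% of all genes below 0 and a median of -0.01. It was -0.32 without untreated replicate 4 and -0.35 without DTG-treated replicate 1. Of 1808 other genes with a symbol 61.2% were below 0, with a median of -0.11, and of 50 further replication and S-phase genes 34 were below 0, with a median of -0.17 as well. Mcm7 was at -0.60 (standard error 0.16), Mcm6 at -0.63 (standard error 0.21) and Fen1 at -0.54 (standard error 0.18), and with the block Mcm6, Mcm7 and Chaf1a had adjusted p-values under 0.05, against 2.89% of all genes lower at that threshold. Mcm7, Fen1 and Chaf1a were lower without overlap in DTG-treated against untreated OLs, and these 3 of 44 genes (6.82%) were near the 6.04% of all genes. Between DMSO-treated and untreated OLs the median was 0.10 with 14 of 45 estimates below 0, against a median of -0.04 and 54.7% below 0 for all genes and of -0.27 and 74.9% for 1796 other genes with a symbol. The direction of this median was not stable, since it was -0.02 without untreated replicate 4, -0.02 without DMSO-treated replicate 1 and -0.49 with libraries scaled to synthetic ERCC transcripts, where 45 of 45 were below 0 and the median of all genes was -0.66. None of the 45 passed the test between DMSO-treated and untreated OLs (edgeR, 2 at an unadjusted p-value under 0.05 against 11.2% of all genes, 0 called by DESeq2), and 0% of 12893 genes were called lower. Between libraries of the same number, the summed level with DMSO was 115%, 114% and 111% of that in untreated OLs of replicates 1, 2 and 4. The median log2 ratio of the genes within these pairs was 0.19, 0.16 and -0.01.

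In OLs replicate 1 was the highest for 27, 26 and 30 of 45 genes in untreated, DMSO-treated and DTG-treated cells. The shares of all genes tested were 26.6%, 28.9% and 24.3%. Without replicate 1 the median of the replication genes between DTG and DMSO was -0.40. Between libraries of the same number the summed level with DTG was 77.9%, 66.1%, 79.0% and 75.1% of that with DMSO in OLs of replicates 1 to 4, and 89.8%, 75.4% and 83.1% of that in untreated OLs of replicates 1, 2 and 4. The scale of counts bears on this. The study added ERCC transcripts, synthetic RNA of known amount, to equal amounts of total RNA. When libraries were scaled to these instead, the median of all genes between DTG and DMSO in OLs was 0.59 and that of the replication genes 0.23, so that 8 of 44 were below 0 while 40 of 44 stayed below the median of all genes. The difference from the median of all genes was -0.38 with TMM and -0.36 with ERCC scaling. The lower values against DMSO are thus relative to other transcripts. With ERCC scaling Mcm7 and Fen1 were at -0.27 and -0.21 against DMSO, and neither passed the test (adjusted p-values 0.710 and 0.780, edgeR). Against untreated OLs the same scaling left 36 of 44 genes below 0, with a median of -0.22 against -0.07 for all genes. None of them had an adjusted p-value under 0.05 (edgeR). ERCC transcripts took 2.19%, 3.99%, 7.19% and 3.42% of all counts in DMSO-treated OLs of replicates 1 to 4. In DTG-treated OLs they took 2.65%, 3.72%, 3.13% and 1.89%. The part of these shares in the shift was not tested.

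Of the 3 OL markers with a symbol, Mog was called lower in DTG-treated than in DMSO-treated OLs, at a log2 fold change of -1.01 (adjusted p-value 0.0116, edgeR). Mbp at -1.40 and Enpp6 at -1.09 did not pass the test (adjusted p-values 0.0865 and 0.123, edgeR), and in both the groups overlapped. The study, which used DESeq2, reported all 3 as reduced in this contrast. It also found Mbp RNA lower by quantitative PCR and MBP protein lower by Western blot after DTG. Cdkn1a, which codes for the CDK inhibitor p21, was at 246 ± 65.2 CPM with DMSO and 494 ± 93.5 CPM with DTG (SD, n = 4 each), a log2 fold change estimated at 1.00 (standard error 0.20, adjusted p-value 0.0324 by edgeR). With ERCC scaling these 4 values kept their sign, at -1.04, -0.44 and -0.62 for Mbp, Mog and Enpp6 and 1.54 for Cdkn1a. These 4 genes took their symbols from the study's table of genes changed in this contrast, so the values are a description. Against untreated OLs, at 216 ± 82.7 CPM (n = 3), Cdkn1a was 1.20 higher on the log2 scale (standard error 0.25, adjusted p-value 0.0809 by edgeR, 0.00108 with the block). This contrast shares the DTG libraries through which Cdkn1a got its symbol, so it is a description as well. The part of the OL markers or of Cdkn1a in the level of the replication genes was not tested.

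In OPCs, after 24 hours of exposure, none of the 45 genes was called between DTG and DMSO (edgeR and DESeq2, 0 at an unadjusted p-value under 0.05 against 0.52% of all genes), and 0% of 13270 genes were called lower. Estimates ran from -0.49 for Tk1, which codes for thymidine kinase, to 0.46 for Brca1, with a median of -0.08 and 28 of 45 below 0, against 50.3% of all genes. This median turned to 0.10 without DMSO-treated replicate 1 and was -0.25 without DTG-treated replicate 1, and ERCC scaling gave 0.24 with 4 of 45 below 0, where the median of all genes was 0.38. The summed level with DTG was 88.3%, 88.0%, 90.7% and 86.7% of that with DMSO in replicates 1 to 4, on the TMM scale. The genes took their symbols for being higher in these DMSO-treated OPCs than in OLs, so the sums are a description and not free of that selection. Of 2046 other genes with a symbol, most of which shared the selection, 28.2% were below 0, with a median of 0.19. Of 54 further replication and S-phase genes 25 were below 0, with a median of 0.03. Mcm7 and Fen1 were at -0.48 (standard error 0.27) and -0.37 (standard error 0.25), and in both the groups overlapped. Against untreated OPCs the median was -0.18 and against each other the DMSO-treated and untreated OPCs differed by a median of -0.10, with 0 genes called in either (edgeR, 1 and 0 of the 45 at an unadjusted p-value under 0.05, against 13.1% and 0.71% of all genes, 0 of the 45 called by DESeq2). Without DTG-treated OPC replicate 4, 827 genes were called against untreated OPCs. Both medians turned without untreated OPC replicate 1, to 0.01 and 0.17, and with ERCC scaling, to 0.38 and 0.12. On the TMM scale, the summed level with DTG was 85.3%, 85.1% and 91.1% of that in untreated OPCs of replicates 1, 2 and 4. With the replicate block 7 of the 45 had an unadjusted p-value under 0.05 between DTG and DMSO, against 6.56% of all genes, and 13 between DTG and no treatment, against 22.2%, and none had an adjusted p-value under 0.05 (edgeR). The interaction of DTG with stage (edgeR, with 0% of 13734 genes called and 2.68% at an unadjusted p-value under 0.05) contains the contrast of DMSO-treated OLs and OPCs that gave these genes their symbols, so for them it is a description and not a test. Their interaction estimates had a median of -0.26, with 38 of 45 below 0 against 44.9% of all genes and 53.6% of 2062 other genes with a symbol. The median was -0.08 without DTG-treated OPC replicate 1, and with ERCC scaling it was -0.12 with 27 of 45 below 0.

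OPC libraries differed in which genes of the list were high. In the DTG-treated library of replicate 2 and the DMSO-treated library of replicate 3, Mcm4, Pola1, Brca1, Brca2, Ccne2 and Tipin were high while Mcm2, Mcm5, Cdt1 and E2f1 were low. Ccne2 was at 26.4 CPM in the former and at 3.51 CPM in DTG-treated replicate 4, and Mcm5 was at 126 and 228 CPM in the same 2 libraries. The ratio of Mcm4 to Mcm5 ran from 0.104 in DMSO-treated replicate 4 to 0.744 in DTG-treated replicate 2. The 3 OPC libraries of highest ratio, at 0.744, 0.574 and 0.548, had ERCC shares of 1.45%, 1.06% and 1.09% of all counts, and the 2 of lowest ratio, at 0.104 and 0.142, had 3.45% and 2.62%. These libraries were chosen after their values were seen. In DTG-treated replicate 2 and DMSO-treated replicate 3, each against replicate 4 of the same treatment, 12 of 45 genes (26.7%) were over 1.5 times higher and 7 (15.6%) over 1.5 times lower in both, against 25.5% and 17.5% of all genes tested, so both shares were near the background. The part of the ERCC share in these ratios was not tested.

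**Figure D5:**
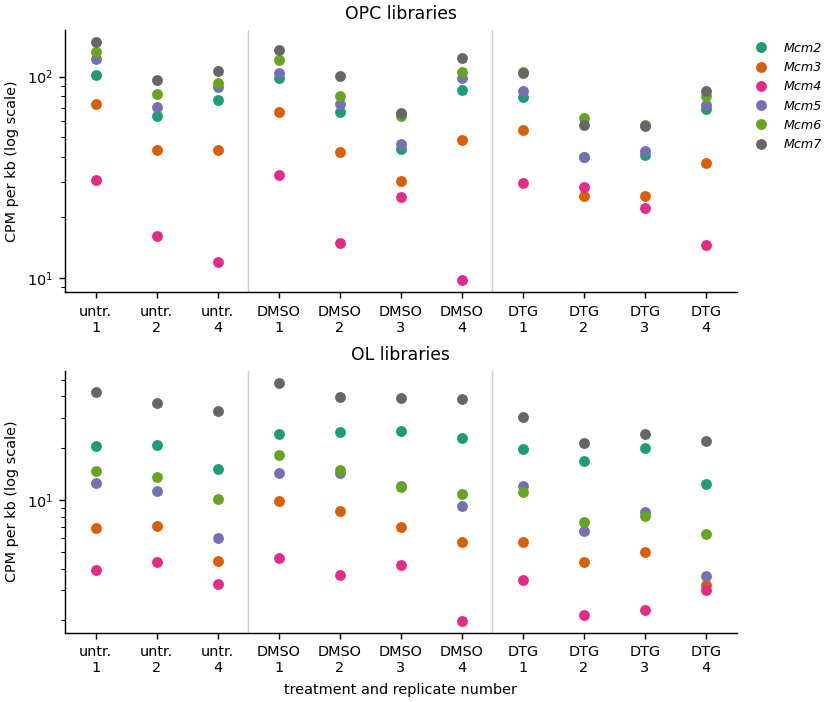
Levels of the 6 MCM subunits in CPM per kilobase of exon (log axes) in each OPC library (top) and OL library (bottom), by treatment and replicate number. Mcm4 is the lowest subunit in 10 of 11 OPC libraries and in every OL library, and Mcm7 is the highest in every OL library.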

How the data were processed

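RNA from primary rat OPC and OL cultures was made into 24 libraries of 2 stages, 3 treatments and 4 replicates. The deposited values were raw read counts per gene, which the authors made with bcl2fastq 2.20, STAR 2.5.2b and featureCounts of Subread 1.5.2 on Rnor_6.0, per the submitters' processing notes. Counts were used as deposited, and rows for the 92 ERCC transcripts stayed out of library sizes and tests. Each comparison was fitted on its own libraries with edgeR 4.0.16 (R 4.3.3, TMM scaling, filterByExpr, quasi-likelihood test), with Benjamini-Hochberg adjustment over every gene that passed the filter. Calls needed an adjusted p-value below 0.05 and a log2 fold change beyond 1 in size. CPM values used TMM factors over 22 libraries. Fits were tested on simulated data.

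The genes, role groups and other lists were chosen with earlier results of these data known. Symbols came from tables of the study that pair them with identifiers, for 2107 genes, and the fold changes and p-values those tables hold were not used. Values per library are given for the most abundant gene of each role, the 3 genes with the largest and the 3 with the smallest change in untreated cells, and the 3 genes of lowest p-value between DTG and DMSO in OLs. Tyms was added because its groups did not overlap, after its values were seen.

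Library names share 1 code per replicate number across all groups, so the number was taken to pair samples by culture preparation, and the study prepared replicates from independent litters. Deviations from group means of same-numbered DTG and DMSO libraries correlated at 0.42, 0.40, 0.40 and -0.01 in OLs and 0.72, -0.12, 0.58 and 0.84 in OPCs, over 14046 genes. Between OLs and OPCs they correlated at 0.15, 0.00 and 0.00 in untreated cells, at 0.34, -0.07, 0.07 and -0.36 with DTG and at 0.39, 0.03, 0.09 and 0.51 with DMSO, so that the deviations across stages went together in some replicates only. The replicate block, DESeq2 1.42.0, other scalings and filters, and leaving out libraries were the alternatives. Member genes had a median of 764.5 to 858 counts in OPC groups and 93.5 to 116 in OL groups, and the lowest count was 3, for Brca2.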

Additional observations from a re-analysis of the deposited data

Results flagged for a closer look

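In the 4-library groups, 16 genes and the summed level gave 68 tests for a single library far from the other 3, and 6 were past the limit, while chance flags about 1 in 20. Uhrf1 was at 246 CPM in DMSO-treated OPCs of replicate 1 and between 120 and 138 CPM in the others. Rrm2 was at 291 CPM in DMSO-treated OPCs of replicate 1 (139 to 158 CPM in the others) and at 263 CPM in DTG-treated OPCs of replicate 1 (130 to 151 CPM). Mcm7 was at 120 CPM in DMSO-treated OLs of replicate 1 and between 96.1 and 99.1 CPM in the others. Pcna was at 61.9 CPM in DMSO-treated OLs of replicate 4, below the 72.2 to 73.9 CPM of the others. Timeless was at 12.8 CPM in DTG-treated OLs of replicate 1 and between 7.30 and 7.83 CPM in the others. Of the 6 values, 5 belong to replicate 1, and tests of different genes in 1 library are not independent.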

How the results depend on the processing

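The fall of the replication genes between stages kept its direction under each alternative run, and between 44 and 45 genes were called in untreated cells and 45 in DTG-treated and DMSO-treated cells with libraries left out. Scaling to ERCC counts moved the medians of the replication genes to -3.24, -4.24 and -4.10 between stages (untreated, DTG, DMSO), to 0.23 and 0.24 between DTG and DMSO (OLs, OPCs), to 0.38 between DTG-treated and untreated OPCs, to -0.49 and 0.12 between DMSO-treated and untreated cells (OLs, OPCs) and to -0.12 for the interaction. The median of all genes then lay at -0.59, -1.36, -1.52, 0.59, 0.38, 0.59, -0.66, 0.20 and 0.13 in the same order. ERCC scaling called 8530 genes between DTG stages, 6979 between DMSO stages, and 19 and 9 between DTG-treated OLs and DMSO-treated or untreated OLs. Between DTG and DMSO in OLs it took the replication genes below 0 from 40 to 8 of 44. Among the genes described by name, the direction turned for Cdt1 (0.19), Pcna (0.24), Prim1 (0.44), Lig1 (0.22), Rrm1 (0.41), Timeless (0.13), Fanci (0.53), Uhrf1 (0.38), Ccne1 (0.39), Rrm2 (0.11), Gins1 (0.041), Mcm2 (0.016), Mcm4 (0.22), Rad51ap1 (0.17) and Chaf1a (0.0071). Without a minimum fold change 5095, 8254 and 6941 genes were called between stages and 112 between DTG and DMSO in OLs, 2 of them replication genes. DESeq2 called 129 and 117 genes between DTG-treated OLs and DMSO-treated or untreated OLs, and 4 in the interaction, and no filter on low counts gave 65 for DTG against untreated OLs. The replicate block gave 173 and 165 genes for the same 2 comparisons, 13 and 4 between DMSO-treated and untreated OLs and OPCs, and a median of -0.02 for the latter, as did including untreated replicate 3. The cause of these shifts was not tested.

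With libraries or replicate numbers left out, the median of the replication genes ran from -2.80 to -2.40 between untreated stages, -3.09 to -2.72 with DTG and -2.74 to -2.38 with DMSO. Between DTG and DMSO it ran from -0.51 to -0.26 in OLs and -0.25 to 0.10 in OPCs, against untreated cells from -0.35 to -0.12 in OLs and -0.39 to 0.01 in OPCs, between DMSO-treated and untreated cells from -0.02 to 0.17 in OLs and -0.26 to 0.17 in OPCs, and for the interaction from -0.44 to -0.08. Genes called ran from 2642 to 3152, 4231 to 6291 and 3449 to 5278 between stages, 28 to 94 and 0 to 37 for DTG against DMSO-treated or untreated OLs, and 0 to 827 for DTG against untreated OPCs, the highest without DTG-treated replicate 4. The direction also turned near 0 between DTG and DMSO in OLs for Prim1 (0.0012), Rrm1 (0.0026) and Fanci (0.039) without the DMSO library of replicate 1, Fanci (0.027) without replicate 2, Uhrf1 (0.037) without the DTG library of replicate 4 and Tipin (-0.0037) without replicate 4. The other ends of these ranges were -0.38 for Prim1, -0.37 for Rrm1, -0.22 for Fanci, -0.40 for Uhrf1 and 0.72 for Tipin. Leaving out whole replicate numbers was chosen after seeing the data. Depth limits the OL values most, since 1, 2 and 4 of the 45 genes had a library under 10 counts in untreated, DMSO-treated and DTG-treated OLs.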
